A study of Mus musculus with 50 samples.

Results

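A set of 9983 acetylated regions was shared by 4 mutant lines of mouse embryonic stem cells (ESCs) and lay outside the binding sites of Polycomb repressive complex 2 (PRC2) in wild-type (WT) cells. The set was taken from the 41185 H3K27ac peaks of the Ezh2 R685C line. A peak was kept when at least 1 of its bases was also in an H3K27ac peak of the Ezh1/2 dKO, Ezh2 KO and Ezh2 Y726D lines and none was in a SUZ12 peak of WT cells, so the regions were chosen by the H3K27ac peak calls of the 4 mutants and the WT SUZ12 calls, and those values are given below as a description. The 9983 common peaks were 24.2% of the R685C list (95% Wilson interval 23.8 to 24.7%, counting error only). Of the H3K27ac peaks of the other lines, 14338 of 25483 in Ezh2 KO (56.3%), 13647 of 17618 in Ezh1/2 dKO (77.5%) and 13897 of 40829 in Ezh2 Y726D (34.0%) touched a common peak.

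The study asked how the methylation states of lysine 27 of histone H3 and the presence of PRC2 itself act on repression, accessibility and acetylation in ESCs. All lines derive from E14TG2a mouse ESCs grown with LIF and inhibitors of GSK3 and MEK. Ezh2 KO cells lack the whole Ezh2 gene and keep Ezh1, Ezh1/2 dKO cells lack both genes, and the Ezh2 Y726D and Ezh2 R685C lines carry a point mutation of endogenous Ezh2 in cells that also lack Ezh1. By the study's description Y726D is catalytically dead, while R685C restores dimethylation of H3K27 more than trimethylation, and the list that the regions were taken from belongs to the R685C line. Each ChIP-seq and ATAC-seq list came from 1 library per line, so no difference between lines in a list could be tested, and each line stands for its own edited cells. RNA-seq had 2 libraries each for Ezh2 Y726D, Ezh1/2 dKO, Ezh2 KO and WT, with 3604123 to 5181553 reads per library. WT H3K27ac and RNA-seq of the R685C line were not analysed here, so whether a common peak is also acetylated in WT cells was not examined.

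PRC2 deposits mono-, di- and trimethylation on H3K27 through its catalytic subunits EZH2 and EZH1, and SUZ12 is a core subunit needed for its assembly. Trimethylation marks the repressed promoters that PRC2 binds, while mono- and dimethylation cover much larger parts of the genome. Acetylation of the same residue, placed by p300 and CBP, excludes its methylation and marks active promoters and enhancers, where transcription factors keep the DNA accessible.

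Short windows from the regions that the results return to are given first, as 240 bases of the plus strand of mm9 around the H3K27ac summit (the highest point of the R685C peak). The first 3 lie at genes of the ESC transcription factor network, the fourth at the distal region with the highest listed value, and the last 3 carry motifs examined further on. Capitals mark a match, on either strand, to SOX AACAATGG, SP GGGGCGGGG, ESRRB TCAAGGTCA, YY1 AAGATGGCG or NRF1 GCGCATGCG.
Pou5f1 region, chr17:35641424-35641663, SP match: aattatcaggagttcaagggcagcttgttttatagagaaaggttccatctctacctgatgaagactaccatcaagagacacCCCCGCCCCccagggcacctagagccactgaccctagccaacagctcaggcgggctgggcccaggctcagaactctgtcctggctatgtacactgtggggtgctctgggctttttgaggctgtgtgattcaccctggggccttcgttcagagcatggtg
Nanog region, chr6:122655939-122656178, SOX match: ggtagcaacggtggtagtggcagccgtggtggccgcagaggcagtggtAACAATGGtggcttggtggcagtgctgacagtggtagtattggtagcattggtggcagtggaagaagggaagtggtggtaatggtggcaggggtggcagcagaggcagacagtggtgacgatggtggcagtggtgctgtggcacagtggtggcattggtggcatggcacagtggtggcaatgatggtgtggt
Esrrb region, chr12:87843563-87843802, SOX match: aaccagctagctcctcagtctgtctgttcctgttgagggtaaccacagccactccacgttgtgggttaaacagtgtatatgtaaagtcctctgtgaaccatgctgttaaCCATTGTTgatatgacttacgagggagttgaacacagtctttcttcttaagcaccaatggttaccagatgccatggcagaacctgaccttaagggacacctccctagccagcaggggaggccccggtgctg
Distal region, chr17:81199836-81200075, no match: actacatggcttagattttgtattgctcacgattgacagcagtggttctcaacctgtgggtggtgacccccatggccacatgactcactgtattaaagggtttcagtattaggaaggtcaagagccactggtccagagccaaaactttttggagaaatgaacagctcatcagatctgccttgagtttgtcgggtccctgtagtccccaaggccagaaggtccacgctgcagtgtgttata
Distal region, chr15:75988351-75988590, ESRRB match: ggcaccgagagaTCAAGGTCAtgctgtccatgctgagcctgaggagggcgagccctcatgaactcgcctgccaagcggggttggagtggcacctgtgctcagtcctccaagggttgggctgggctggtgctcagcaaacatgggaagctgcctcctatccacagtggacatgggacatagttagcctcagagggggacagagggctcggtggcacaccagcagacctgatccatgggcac
Promoter region, chr11:97460210-97460449, YY1 match: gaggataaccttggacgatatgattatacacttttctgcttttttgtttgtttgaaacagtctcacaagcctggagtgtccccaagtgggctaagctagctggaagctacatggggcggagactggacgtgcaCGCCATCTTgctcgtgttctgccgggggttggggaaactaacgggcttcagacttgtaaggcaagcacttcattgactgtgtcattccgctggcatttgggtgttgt
Hnrnpa1 promoter region, chr15:103071132-103071371, NRF1 match: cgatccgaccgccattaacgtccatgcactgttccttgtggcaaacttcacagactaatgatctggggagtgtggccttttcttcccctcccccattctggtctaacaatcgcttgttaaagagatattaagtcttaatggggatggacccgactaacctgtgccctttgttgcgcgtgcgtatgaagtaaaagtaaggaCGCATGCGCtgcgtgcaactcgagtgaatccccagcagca
The Pou5f1 window is intergenic, 1.44 kb from the transcription start site (TSS) of Pou5f1, which encodes OCT4. The Nanog window is intergenic, 1.45 kb from the Nanog TSS, and the Esrrb window lies in an intron, 1.68 kb from the nearest protein-coding TSS of Esrrb. The first distal window is intergenic, 72.5 kb from Map4k3, and the ESRRB window is intergenic, 30.0 kb from Plec. The YY1 window lies in an intron, 23.8 kb from the nearest protein-coding TSS (Srcin1), in a peak with an annotated TSS within 1 kb. The Hnrnpa1 window is intronic, 0.307 kb from the TSS of this RNA-binding protein gene.

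The labels were first checked where the files allowed it. Ezh2 was at 597.6 and 545.9 normalized counts in the 2 WT libraries, at 1.05 and 0.968 in Ezh2 KO and at 0.824 and 1.78 in Ezh1/2 dKO, and it remained at 421.7 and 613.1 in Ezh2 Y726D, where the mutant gene is transcribed. Ezh1 was at 226.8 and 377.4 in WT and at 372.2 and 378.3 in Ezh2 KO, against 14 and 20.4 in Ezh1/2 dKO and 24.1 and 15.7 in Ezh2 Y726D. Both genes followed the labels in the RNA. The H3K27ac lists did not track the deletions. A peak lay within 1 kb of an Ezh2 TSS in all 4 lists, Ezh2 KO and Ezh1/2 dKO included. The Ezh1 TSSs had 3 peaks each in Ezh2 Y726D and Ezh1/2 dKO, which lack Ezh1 by label, and 0 in R685C and Ezh2 KO. The label of the R685C line was not checked in RNA. WT replicate 1 stood apart in early response genes, with Egr1 at 2118 and Fos at 1876 normalized counts against 9.63 and 13.5 in WT replicate 2.

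The common peaks were the wide and high part of the R685C list, as the values that chose them imply. Their median width was 1887 bases (quartiles 1226 and 2927), against 1145 bases for R685C peaks found in 2 other lines (7110 peaks), 743 for those found in 1 other line (8498) and 474 for those of R685C only (15217). The median −log10 p of the summit was 38.3 in common peaks and 22.1, 15.7 and 12.6 in the other classes, and the median fold enrichment over the local background of the library was 11 against 7.71, 6.27 and 5.73. A wide peak has more bases with which to meet another list, so width and membership are linked by the rule. Another 155 R685C peaks were shared by all 4 lines but touched a WT SUZ12 peak, and were left out by the rule.

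Within the set the listed values differed between the 4 lines. Median fold enrichment over the 9983 regions was 11 in R685C, 9.24 in Ezh2 Y726D, 7.72 in Ezh2 KO and 6.58 in Ezh1/2 dKO. The dKO list held the lowest fold at 6581 regions and the R685C list the highest at 6654. The peaks of the other lines covered a median 76.2% of the R685C peak in Ezh2 Y726D, 64.6% in Ezh2 KO and 41.2% in Ezh1/2 dKO, and covered at least 50% of it at 8173, 7322 and 3625 regions. Fold enrichment ranked the regions in a broadly shared order (Spearman rho 0.478 to 0.622 over the 9983 regions for the 6 pairs of lines, a description over regions that share a library within each line). These lists are not scaled by spike-in and the read depth behind them is not known here, so a lower fold in Ezh1/2 dKO cannot be told apart from a weaker library.

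Of the 10 regions with the highest R685C values, 5 had a protein-coding TSS within 1 kb: Rpl27a and Rpl32 (ribosomal proteins), Pou5f1, Hspa9 (a mitochondrial chaperone) and Rabggtb (a prenyltransferase subunit). The highest R685C value was at Rpl27a, at chr7:116660436-116667109, with −log10 p of 140.7 in R685C, 121.5 in Ezh2 Y726D, 118.4 in Ezh2 KO and 98.5 in Ezh1/2 dKO. The Pou5f1 region, chr17:35639267-35645498, followed with 136.5, 110.0, 98.0 and 69.3 in the same order, and was covered for 90.3% of its length in the dKO list. The distal region near Map4k3 held 133.4 in R685C but 60.3, 50.05 and 31.9 in the other lines. The widest region, at 18228 bases, lay in an intron at chr3:129240192-129258419, 9.93 kb from Elovl6, a fatty acid elongase gene. The Fgf4 region, at a growth factor gene of ESCs, was 15205 bases wide (chr7:152038809-152054013), with 93.1% of it covered in Ezh2 Y726D and 69.8% in Ezh1/2 dKO. At the lower end, the weakest 5 common peaks had a −log10 p of 10.001 to 10.08 in R685C, at the limit of the list.

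At the edge of the rule, the 5 members that met another list by the smallest overlap did so by 9 to 20 bases, as at Cacnb3 and Wrap53. The nearest 5 peaks outside missed by 1 to 21 bases, as near Tbx3 at 4 bases and at Sdc4 at 21 bases. All 5 of these lacked only the Ezh1/2 dKO peak. The dKO list, the shortest of the 4, set the boundary in these cases.

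About as many distal common peaks stood alone as shared a group with others. The 5144 peaks with no TSS within 1 kb, joined at the gap customary for enhancer clusters, formed 3614 groups, of which 2603 were single peaks and 45 held 5 or more. The largest number, 9 peaks over 44952 bases, lay near Sik1 on chromosome 17, and 7 of these 9 touched an ATAC region of the highest quintile in WT. The longest group extended over 56101 bases in Sulf2 with 8 peaks, of which 0 did so, and a group of 5 peaks over 48059 bases overlapped Esrrb, an orphan nuclear receptor gene of naive ESCs. Median fold enrichment in the Esrrb group was 12.7 in R685C, 11 in Ezh2 KO, 10.8 in Ezh2 Y726D and 7.13 in Ezh1/2 dKO. A group of 7 peaks near Glrx5 and Tcl1b2 had a WT ATAC region of the highest quintile in all 7.

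Common peaks were found at TSSs more often than the other R685C peaks. Within 1 kb of a TSS were 4839 of the 9983 (48.5%, interval 47.5 to 49.4%), against 36.5%, 25.8% and 17.7% of R685C peaks found in 2, 1 and 0 other lines. Of the 155 shared peaks on WT SUZ12, 78.7% were at a TSS. The order was the same at equal width. In the 500 bases around the summit, 20.2% of common peaks held a TSS and 14.1%, 9.01% and 4.90% of the others did. Among whole peaks of the highest quintile of the R685C list, not matched for width, the shares within 1 kb were 52.7%, 42.4%, 24.01% and 14.3%. Peaks are not replicates, so these intervals cover counting error only and no test was made between classes.

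**Figure D1:**
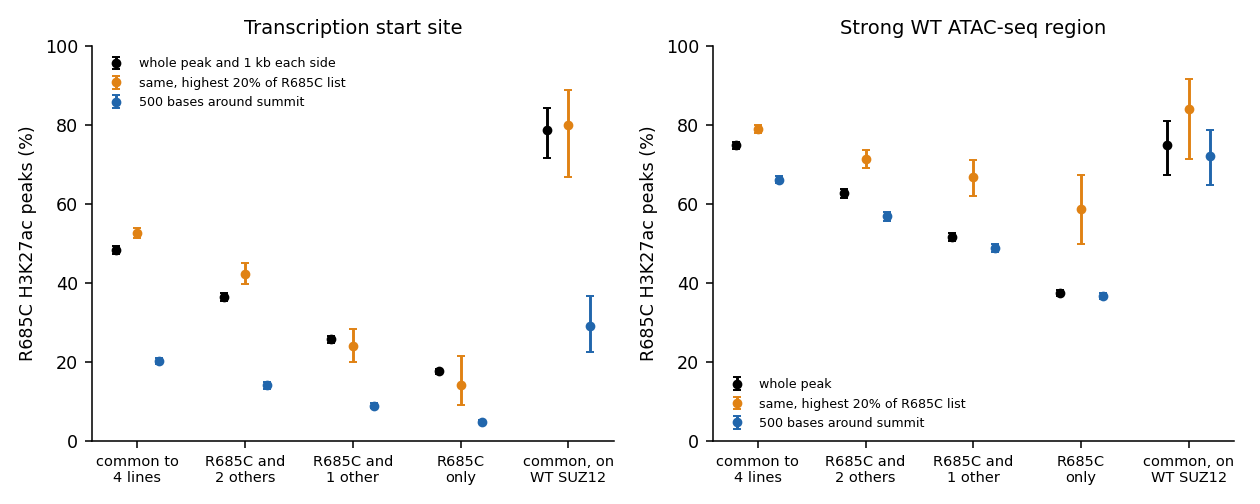
Share of R685C H3K27ac peaks within 1 kb of a TSS and on an ATAC region of the highest quintile in WT, in percent, by the number of other lines with a peak there and, for common peaks on WT SUZ12, apart. Black points take the whole peak (with 1 kb on each side for TSSs), orange points the same for the highest 20% of the R685C list, blue points the 500 bases around the summit, all with 95% Wilson intervals. The black shares fall from the common peaks, at 48.5% and 74.8%, to the R685C-only peaks, at 17.7% and 37.4%.

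The 5144 distal common peaks lay between genes more often than the other distal peaks did. Their summits were intergenic in 55.8% of cases, in an intron in 40.4% and in an exon in 3.79%, whereas in the R685C-only class 43.2% were intergenic and 52.4% intronic. Their median distance to the nearest protein-coding TSS was 21.5 kb, against 18.3, 17.6 and 15.9 kb in the classes with 2, 1 and 0 other lines. The distal common peaks were slightly wider than those at TSSs, at a median 1958.5 against 1821 bases, with a fold in R685C of 10.6 against 11.4. Coverage in Ezh2 Y726D was 84.2% at distal peaks and 67.2% at TSS peaks, while the dKO list covered 44.8% and 38.6%.

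Accessibility of these regions was measured by ATAC-seq, which maps where a transposase can cut, in WT and 3 mutant lines. Because each list held 752009 to 798238 regions at a low threshold, only the highest quintile (20%) of each list by −log10 p was counted, a rank that starts at a −log10 p of 1.58 to 1.62. Such a WT region was on 74.8% of common peaks (interval 74.0 to 75.7%) and on 62.7%, 51.7% and 37.4% of R685C peaks found in 2, 1 and 0 other lines. The same share, 74.8%, held for the 155 shared peaks on WT SUZ12. Within the 500 bases around the summit the shares were 66.2%, 57.0%, 48.9% and 36.7%, so equal windows kept the order.

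Each mutant line was ranked in the same way. A region of the highest quintile was on 77.8% of common peaks in Ezh2 KO, 76.9% in Ezh2 Y726D and 71.6% in Ezh1/2 dKO. It was present in all 4 lines at 4562 regions (45.7%) and in none at 364 (3.65%). At TSSs the WT share was 81.8%, and it was 68.3% at distal peaks. In the 100 bases to the right of the summit, such regions covered 67.6% of bases at TSS peaks and 48.7% at distal peaks in WT. In Ezh1/2 dKO they covered 63.4% and 44.4% of these bases. Toward 2 kb from the summit the WT coverage was 16.9% and 19.2%. With 1 library per line and a rank within each list, these values say nothing on total accessibility.

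**Figure D2:**
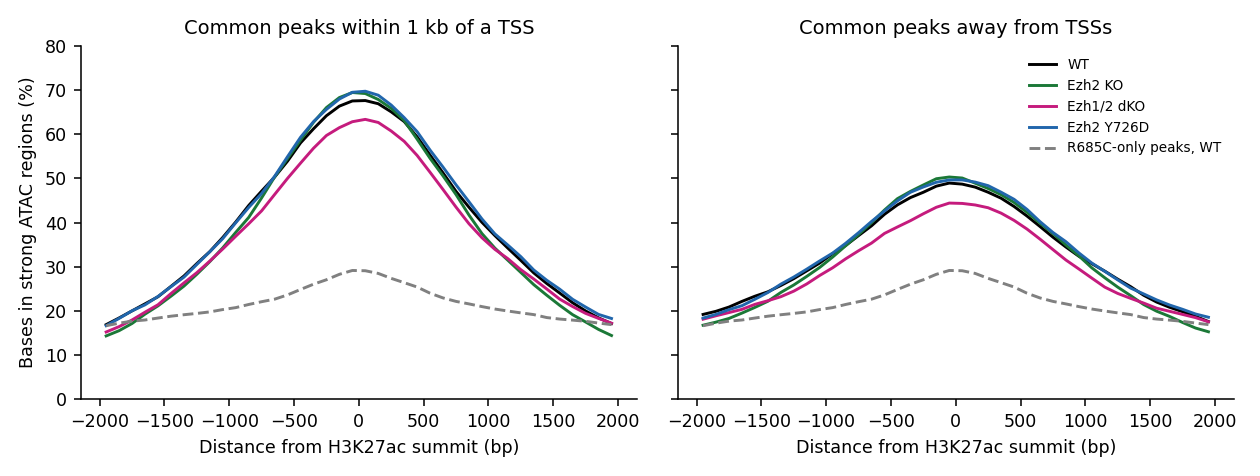
Percent of bases in ATAC regions of the highest quintile of their own list, in 100-base bins by distance from the H3K27ac summit in bases, for common peaks at a TSS (left) and distal ones (right), with a curve for each of 4 cell lines and a dashed curve for R685C-only peaks in WT. All 4 curves peak beside the summit, at 63.4 to 69.8% for TSS peaks and 44.4 to 50.3% for distal peaks, above the 29.2% of R685C-only peaks.

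The DNA of the common peaks differed by location. In the 500 bases around the summit, TSS peaks had a median GC content of 58.2% and a median CpG observed-to-expected ratio of 0.692, over 0.6 in 61.9% of them, as CpG island promoters have. R685C-only peaks near a TSS had 49.6% GC and a ratio of 0.375, over 0.6 in 26.1%. Distal common peaks had 48.2% GC and a ratio of 0.218, over 0.6 in 3.31%, close to all distal R685C peaks with 47.0% and 0.209. Read in the 500 bases around the strongest WT ATAC region instead, the promoter difference shrank, with a ratio over 0.6 in 56.7% of common and 49.2% of R685C-only peaks.

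Motif letters were searched on both strands, and NRF1, SP and ETS matches may overlap each other in GC-rich DNA. YY1 AAGATGGCG, the motif of a zinc finger factor at many housekeeping promoters, was in 4.24% of common TSS peaks, 2.59% of all R685C TSS peaks and 1.19% of R685C-only TSS peaks. ETS CCGGAAGT was in 5.06%, 3.92% and 2.01%, NRF1 GCGCATGCG, the site of a regulator of mitochondrial genes, in 2.34%, 1.64% and 0.669%, and SP GGGGCGGGG in 8.56%, 7.97% and 5.87%. Around the ATAC region YY1 was in 3.82% of common and 2.70% of R685C-only TSS peaks, NRF1 in 2.40% and 2.17% and ETS in 5.69% and 5.34%. SP went the other way there, in 14.8% of common and 17.4% of R685C-only TSS peaks. The motifs printed above in the Hnrnpa1 and YY1 windows are single instances of these classes.

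Motifs of the ESC network were not more frequent at distal common peaks when read around the summit. ESRRB TCAAGGTCA was in 1.79% of them and in 1.97% of all distal R685C peaks, the octamer ATGCAAAT bound by OCT4 in 2.45% against 2.68%, SOX AACAATGG in 2.24% against 2.25% and KLF GGGNGTGGC in 3.17% against 3.62%. Around the WT ATAC region the values were 2.62% against 2.38%, 3.56% against 3.68%, 3.27% against 2.94% and 5.24% against 4.56%. The Wilson intervals of common and all distal peaks overlapped for all 4 motifs in both windows. A match is a string of letters and not a bound site.

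Methylation lists were compared by the percent of bases inside common peaks that they covered, and in 5 kb on either side. H3K27me1 regions covered 28.2% of the common peaks and 45.1% of their flanks in WT, against 14.5% of the 9 chromosomes compared. In Ezh2 KO they covered 0.514% and 6.5%, although the list covered 18.8% of those chromosomes. In Ezh1/2 dKO the values were 7.34%, 9.0% and 11%, and in Ezh2 Y726D 27.5%, 18.4% and 12.6%. In the WT list the flanks were therefore covered more than the peaks, and in the Ezh2 Y726D list the peaks more than the flanks. The dKO and Y726D lines lack PRC2 activity, so coverage by their lists is not read as H3K27me1.

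H3K27me2 regions, on 19 chromosomes, covered 16.4% of the peaks and 34.3% of the flanks in WT, against 14.2% of the chromosomes. In Ezh2 KO this was 0.609%, 4.23% and 16.2%. In Ezh1/2 dKO it was 30.5%, 23.9% and 24.8%, and in Ezh2 Y726D 32.4%, 25.4% and 24.3%. The dKO and Y726D lists thus held the peaks at more than the level of the chromosomes, in lines that lack PRC2 activity. A region list gives the rank of places within its own library and no amount of mark, so coverage in these lines is not a measure of H3K27me2.

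Distal common peaks were covered more than TSS peaks by both marks in WT, at 37.9% against 18.3% for H3K27me1 and 21.4% against 10.8% for H3K27me2. R685C-only peaks were covered by H3K27me1 for 56.3% in WT, more than the common peaks. The Ezh2 KO list covered little of every class outside WT SUZ12, at 0.514% to 1.25% for H3K27me1.

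**Figure D3:**
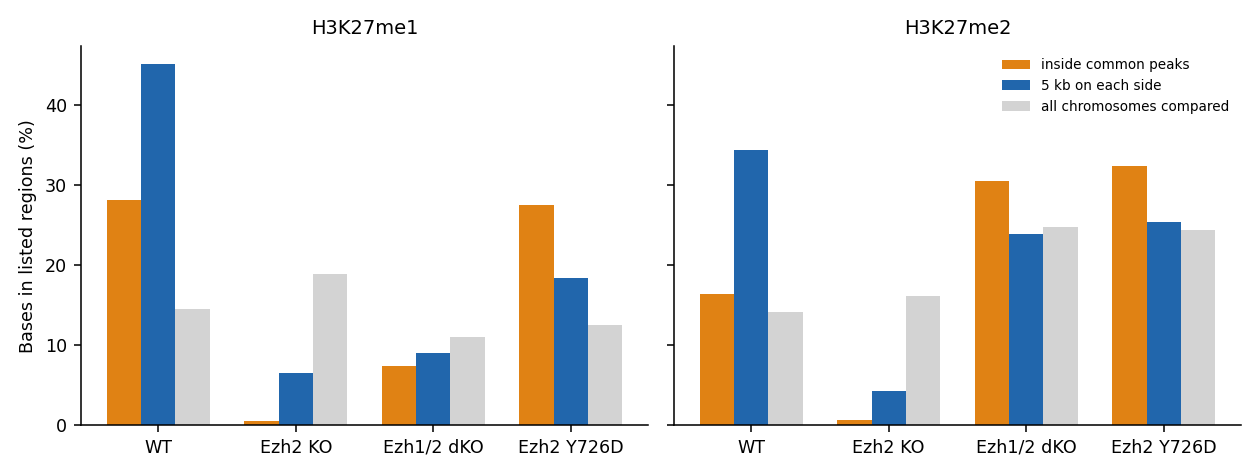
Percent of bases of common peaks, of their 5 kb flanks and of the chromosomes compared that H3K27me1 regions (9 chromosomes) and H3K27me2 regions (19 chromosomes) covered, in 4 lines with 1 library each. Coverage in Ezh2 KO is under 1% of peak bases for both marks, while WT flanks are covered for 45.1% and 34.3%.

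H3K27me3, the mark of repressed PRC2 targets, touched few of the common peaks in any line. Of the 9983 common peaks, its peaks touched 18 in WT, 56 in R685C, 19 in Ezh2 KO, 69 in Ezh2 Y726D and 0 in Ezh1/2 dKO. Of those in Ezh2 Y726D, 64 were distal, and of those in R685C, 41 were at a TSS. In Ezh2 Y726D the R685C-only peaks were touched about as often, 101 of 15217 (0.664%) against 0.691% of common peaks. The study describes nearly no H3K27me3 peaks in that catalytically dead line, so its calls are not read as methylation. The lists also differ in extent, covering 0.545% of the chromosomes in WT and 0.0763% in Ezh2 Y726D. The rule left out WT SUZ12 peaks, so a low count in WT follows in part from the choice of regions. In the mutants SUZ12 peaks touched 104 common peaks in Ezh2 Y726D (1.04%, 91 of them at a TSS), 2 in R685C, 1 in Ezh1/2 dKO and 0 in Ezh2 KO. The Ezh2 Y726D list touched 0.577%, 0.388% and 0.118% of R685C peaks found in 2, 1 and 0 other lines. Those classes were narrower and less often at a TSS, and the shares were not matched for either. The median distance of a common peak to a WT SUZ12 peak was 179.8 kb, with 156 peaks within 5 kb.

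HA peaks touched few common peaks with or without HA-tagged EZH1 in Ezh1/2 dKO cells. The HA list of the cells expressing HA-EZH1, with 4429 peaks, touched 153 common peaks (1.53%, interval 1.31 to 1.79%), and the HA list of untagged Ezh1/2 dKO cells, with 1291 peaks, touched 137 (1.37%, 1.16 to 1.62%). Of these, 88 were in both lists. R685C peaks found in 2, 1 and no other lines were touched less often, at 0.858%, 0.424% and 0.315% with HA-EZH1. Without the tagged protein their shares were 1.01%, 0.577% and 0.256%, and these classes were also narrower. HA peaks without a tagged protein are background. The lists differ in length, so their counts are given side by side, and no binding of EZH1 is read from them.

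The share of R685C peaks in the set was similar on most chromosomes. It lay between 20.3% on chromosome 8 and 26.6% on chromosome 19 over the autosomes. On the X chromosome it was 12.8%, or 96 of 748 peaks, and 0 of the 3 peaks on the Y were common. Uty, a gene of the Y, was at 0 and 0 normalized counts in Ezh2 Y726D and 360.2 and 476.6 in WT. Whether that line kept the Y was not tested. The median fold of common peaks was lowest on chromosome 8 in R685C (9.50), Ezh2 KO (6.87) and Ezh1/2 dKO (5.66), with chromosome 11 next at 9.78, 6.96 and 5.93. In Ezh2 Y726D chromosome 12 was lowest at 7.61, with chromosome 8 at 8.0 and chromosome 11 at 8.35. The other chromosomes had 10.8 to 11.6 in R685C. Copy number was not measured, and its part in these levels was not tested.

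**Figure D4:**
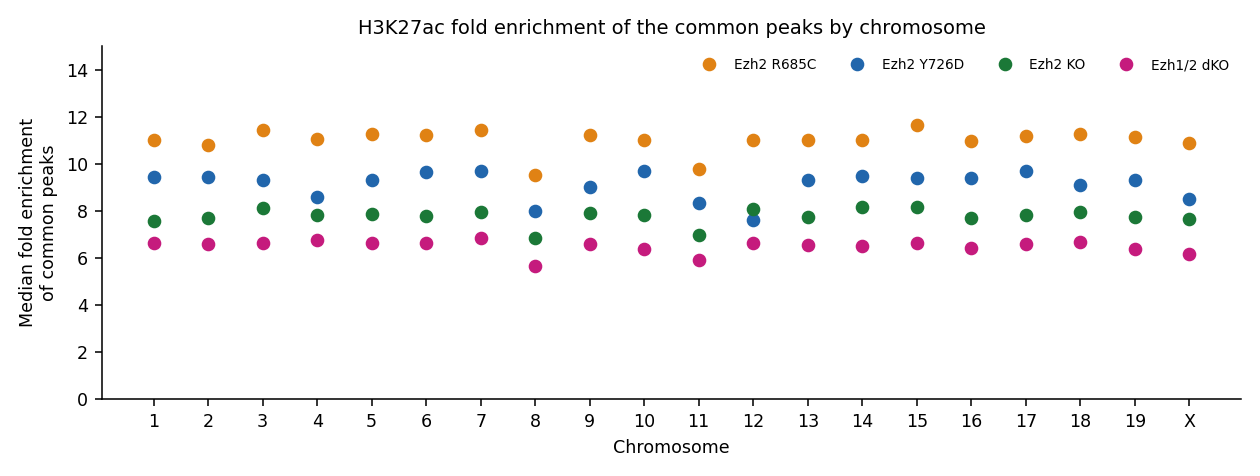
Median H3K27ac fold enrichment of common peaks (vertical axis) by chromosome, with a point for each of the 4 lines. Chromosomes 8 and 11 lie below the others in R685C, Ezh2 KO and Ezh1/2 dKO, and chromosome 12, at 7.61, is lowest in Ezh2 Y726D.

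Genes with a common peak within 1 kb of a TSS were mostly expressed genes. Of 5575 gene names with such a peak, 4923 were in the RNA table and 4784 passed a filter of 5 mean normalized counts. Those that passed are not all members, and the filter favours expressed genes. Their median count lay between 389.9 and 424.2 in the 8 libraries, and the 8801 matched genes without a peak had 74.7 to 96.4, so the ranges do not overlap. In such bulk RNA, fewer cells expressing a gene and less RNA per cell cannot be told apart. By quintile of WT expression, 3.07%, 9.30%, 21.8%, 41.3% and 65.9% of genes had a common peak, from lowest to highest. The other 3 lines gave almost the same steps, with 64.2 to 65.0% in the highest quintile.

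**Figure D5:**
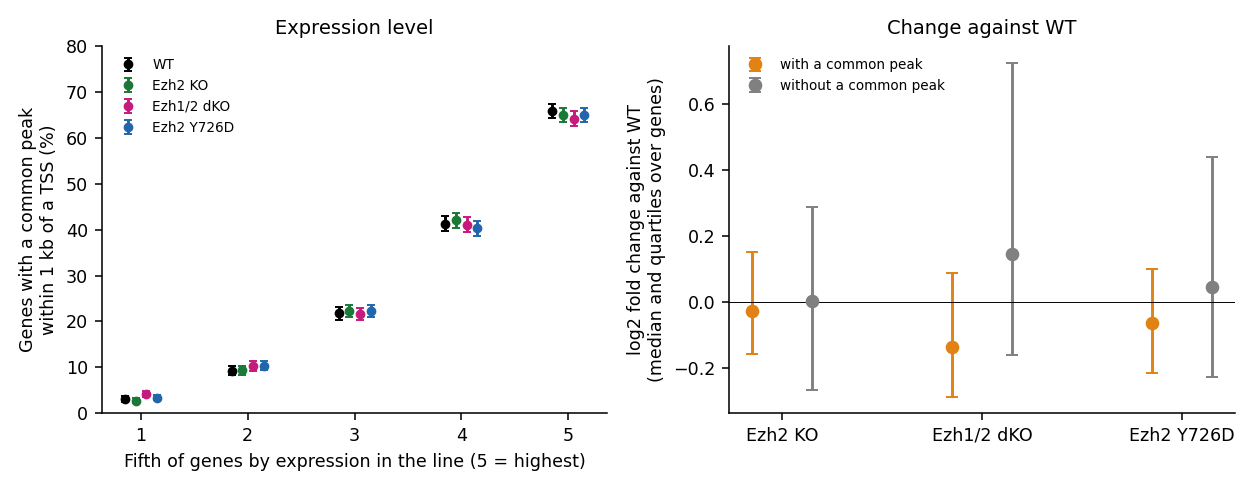
Left, percent of genes with a common peak within 1 kb of a TSS by quintile of expression in each line, with 95% Wilson intervals, rising from 3.07% to 65.9% in WT. Right, median log2 fold change against WT, with quartiles over genes, of genes with and without a common peak in the 3 mutants with RNA-seq, where the medians in Ezh1/2 dKO are −0.14 and 0.15.

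Most ESC identity genes carried a common peak, and markers of other lineages did not, with the exceptions of Otx2 and Fn1. Of 30 naive pluripotency and ESC identity factors 26 had a common peak, the others being Dppa3, Dppa4, Utf1 and Gbx2. Of 85 ribosomal protein genes 78 had one, of 22 housekeeping genes 17, of 20 regulators of H3K27 acetylation and bromodomain genes 12, and of 11 PRC2 subunit genes 7. Of the signalling lists, 6 of 12 LIF and STAT3 genes, 4 of 17 Wnt targets (23.5%) and 4 of 15 ERK targets (26.7%) had one. Of the 18055 genes with counts, 4923 had one, 631 genes being unmatched, so the Wnt and ERK shares did not exceed that of all genes. In the highest quintile of WT expression the share was 65.9%, and the lists were not matched for expression. Of the germ layer markers only Otx2, of 16, had one. None of 12 primitive endoderm, 11 trophectoderm or 8 two-cell-like markers did, and 1 of 10 fibroblast markers, Fn1, did. Peaks on WT SUZ12 are outside the set by the rule, so a marker whose peaks all lie on PRC2 sites counts as having none. The low counts of lineage markers may follow in part from this, and their SUZ12 sites were not counted. These lists were chosen with earlier results of these data known.

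Of the 26 factors with a common peak, 0 were called in any line by limma, edgeR or DESeq2. At an unadjusted p under 0.05 and any fold there were 5 in Ezh1/2 dKO, 3 in Ezh2 Y726D and 1 in Ezh2 KO. Prdm14, a repressor that guards naive pluripotency, came nearest, at 294.8 and 318.7 normalized counts in WT and 545.7 and 547.8 in Ezh1/2 dKO (log2 fold change 0.83 ± 0.22, limma adjusted p = 0.0907). Tfcp2l1, a target of LIF signalling and a core naive factor, was at 5372 and 5172 normalized counts in WT, 4263 and 5361 in Ezh2 KO, 4026 and 4605 in Ezh2 Y726D and 3889 and 4789 in Ezh1/2 dKO. Esrrb was at 2082 and 2307 in WT and 2033 and 1947 in Ezh1/2 dKO, with a log2 fold change of −0.14 ± 0.12 (SE). Pou5f1 was at 1916 and 1486 in WT and 1328 and 1405 in Ezh1/2 dKO. Over all lists, the called genes with a common peak were Ezh2 and Pim3, a kinase induced by LIF, at 232.1 and 211.8 in WT and 117.0 and 101.2 in Ezh1/2 dKO (log2 fold change −1.02 ± 0.24, limma adjusted p = 0.0623).

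Few genes with a common peak changed in expression. A call needed a limma adjusted p under 0.1, over the 13872 genes tested, together with a change of at least 1 on the log2 scale in either direction, and the 3 comparisons share the same 2 WT libraries. In Ezh1/2 dKO, 22 of the 4784 (0.460%) were higher and 3.63% of all genes tested were, while another 22 were lower against 0.389% of all genes. In Ezh2 Y726D, 10 were higher (0.209%) against 1.66% of all genes and 38 lower (0.794%) against 1.06%. In Ezh2 KO, 0 were higher against 0.0937% of all genes, with 28 at an unadjusted p under 0.05 and that fold, 0 by edgeR and 7 by DESeq2, and 3 were lower (0.0627%) against 0.310%. The 8801 genes without a peak had 474 higher and 31 lower in Ezh1/2 dKO, and 217 and 104 in Ezh2 Y726D. They include genes whose peaks all touch WT SUZ12, and the study reports preferential de-repression of direct PRC2 targets in both lines. The lower share of higher calls among genes with a common peak can follow in part from the rule, which was not tested. Single libraries moved the calls among all genes tested as well as among those with a common peak. Without Ezh1/2 dKO replicate 1 or 2, 0 genes with a peak were higher and 1 lower in that line, and over all genes 7 or 1 were higher and 2 lower. Without Ezh2 Y726D replicate 1, 116 of the genes lower in that line had a peak, of 330 lower over all genes. Without WT replicate 2, the genes with a peak that were higher numbered 34 of 470 in Ezh1/2 dKO, 19 of 209 in Ezh2 Y726D and 10 of 53 in Ezh2 KO.

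Since genes with a common peak were highly expressed, the calls were also counted by quintile of mean expression. In the second quintile 1.68% of genes with a common peak were higher in Ezh1/2 dKO and 8.88% of those without, and in the third quintile 0.899% and 5.20%. In Ezh2 Y726D the shares were 0.629% and 3.93%, and 0.562% and 2.90%. Lower calls in Ezh1/2 dKO went the other way in quintiles 2, 3 and 4, at 0.839% with a peak against 0.536% without, 1.01% against 0.712% and 0.621% against 0.210%, from 4, 9 and 8 genes with a peak. In Ezh2 Y726D the shares called lower in these quintiles were 1.68% against 1.79%, 1.91% against 1.31% and 0.466% against 0.980%, so they followed no single direction. In the highest quintile 0 of 1863 genes with a peak and 1 of 854 without were higher in Ezh1/2 dKO. A gene without a peak in any 1 of the 4 mutants is outside the set by the rule, and so is one whose peaks all touch WT SUZ12. Acetylation, PRC2 binding in WT and these counts are therefore not independent. Median log2 fold change of genes with a peak was −0.14 in Ezh1/2 dKO, −0.07 in Ezh2 Y726D and −0.03 in Ezh2 KO, and −0.15 relative to all genes in Ezh1/2 dKO, but −0.02 relative to all genes under quantile normalization. Of genes with a common peak, 83 were called in at least 1 line: 26 higher in 1 line and 3 in 2, and 47 lower in 1 line and 8 in 2, with 0 in all 3 in either direction.

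Genes with a common peak that changed most are given by line. In Ezh1/2 dKO, Hsd17b2, a steroid dehydrogenase gene, rose from 2.67 and 5.78 in WT to 39.6 and 48.8 (log2 fold change 3.17 ± 0.66, limma adjusted p = 0.0425). Ppp2r2c, a phosphatase 2A subunit gene, rose from 30.7 and 19.3 to 145.9 and 203.3 (2.77 ± 0.41, limma adjusted p = 0.0158). Tesc rose from 4.0 and 0.963 to 20.6 and 12.4 (2.44 ± 0.62, limma adjusted p = 0.0791). The genes named here and below were picked among called genes with both libraries beyond both WT libraries. Values apart from WT therefore follow from the choice.

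Among the genes that fell, Ezh2 was the targeted gene. In Ezh1/2 dKO Dlgap3, a postsynaptic scaffold gene, fell from 261.5 and 285.0 to 69.2 and 40.8 (−2.34 ± 0.47, limma adjusted p = 0.0390). Def6 fell from 141.4 and 164.6 to 45.3 and 27.5 (−2.08 ± 0.37, limma adjusted p = 0.0286) and also in Ezh2 KO to 47.1 and 28.1 (−2.04 ± 0.37, limma adjusted p = 0.0860). Pdk1, which inhibits pyruvate dehydrogenase, fell in Ezh2 KO from 765.7 and 637.4 to 368.0 and 267.1 (−1.15 ± 0.20, limma adjusted p = 0.0830).

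In Ezh2 Y726D the largest changes were decreases. P2rx3, an ATP-gated ion channel gene, was at 791.1 and 762.6 in WT, 610.8 and 737.0 in Ezh1/2 dKO and 30.3 and 6.71 in Ezh2 Y726D (−5.65 ± 0.50, limma adjusted p = 0.00197). Inhbe, an activin subunit gene, was at 113.4 and 202.2 in WT and at 9.81 and 2.24 in Ezh2 Y726D (−4.69 ± 0.54, limma adjusted p = 0.00829), and Slc7a11, the cystine transporter gene, at 328.2 and 290.8 against 49.0 and 5.59 (−4.09 ± 0.70, limma adjusted p = 0.0324). All 3 also had 2 lower values in Ezh2 Y726D than in Ezh2 KO and Ezh1/2 dKO, while lower values than in WT follow from the choice. Among the genes that rose there, Abca4 went from 4.0 and 3.85 to 36.6 and 20.1 (2.52 ± 0.54, limma adjusted p = 0.0584), Islr2 from 64.0 and 31.8 to 198.8 and 247.2 (2.27 ± 0.45, limma adjusted p = 0.0480), and BC028528 from 20.01 and 34.7 to 88.3 and 76.1 (1.60 ± 0.35, limma adjusted p = 0.0628). The study describes its samples as biological replicates. With 2 libraries per line, these p-values set each difference against an estimate of the spread between libraries that all 8 libraries share. They do not cover differences between separately edited lines.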

How the data were processed

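H3K27ac, H3K27me1, H3K27me2, H3K27me3, SUZ12 and HA ChIP-seq, ATAC-seq and RNA-seq files were used. The authors used Bowtie for alignment to mm9, dropped duplicate reads (Picard) and called peaks in each library with MACS2. The deposited peak lists give a −log10 p-value and, for narrow peaks, a fold enrichment over the local background (a ratio), with no spike-in scaling stated for them. The deposited RNA-seq signal was read counts divided by size factors by the authors, and all values returned whole reads (tolerance 0.01 reads). Their log2 fold changes and p-values were deposited beside these and were not used.

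Peaks were intersected by 1 base. Promoter peaks had a TSS within 1 kb, and of the 18055 genes with counts, 16570 matched the mm9 GENCODE annotation by symbol and 854 by RefSeq synonym, and 631 did not. Normalized counts were tested with limma 3.58.1 with trend on log2(value + 1), over all 8 libraries without a block, for genes with a mean of at least 5, with Benjamini-Hochberg adjustment, with alternatives on the recovered reads (DESeq2 1.42.0, edgeR 4.0.16). Genes were named as the 3 called with the largest change in each direction and line, list genes with the highest WT counts, and regions by the 10 widest and 10 highest. The members and lists were chosen with earlier results of these data known. Wilson intervals cover counting error only. Steps were tested on simulated data. WT H3K27ac, RING1B, H2AK119ub, input, rescue and drug-treated libraries were not analysed here.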

Additional observations from a re-analysis of the deposited data

How the results depend on the processing

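The count of common peaks was 7395 with the lists cut to equal length, 9877 without SUZ12 in any line and 12946 from the Ezh1/2 dKO list, against 9983, but 3194 when at least 50% of each peak had to be covered in each other line and 2553 at a −log10 p of at least 20 in all 4 lists. The share within 1 kb of a TSS, 48.5%, was 40.5% and 58.3% under those stricter rules, 52.4% with equal lists, 41.2% from the dKO list, 52.7% in the highest quintile, 40.6% with a TSS inside the peak, 58.9% within 5 kb, 45.6% for protein-coding genes and 20.2% in the 500 bases around the summit. The share on a strong WT ATAC region, 74.8%, was 73.3%, 82.5%, 78.0%, 65.3% and 79.0% under the first 5 of these, 54.8% with the highest 10% of ATAC regions and 66.2% in the 500 bases. The windows of 500 bases and motifs around ATAC regions were chosen after seeing the data.

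Counts of genes with a common peak called higher or lower moved as follows, with the count over all genes tested in brackets. At an adjusted p under 0.05 they were 14 (254) higher and 13 (31) lower in Ezh1/2 dKO, 3 (117) and 21 (83) in Ezh2 Y726D and 1 (25) lower in Ezh2 KO. With no filter on low values Ezh2 Y726D had 6 (167) and 24 (106), and Ezh2 KO 1 (28) lower. Quantile normalization gave 39 (129) lower in Ezh1/2 dKO and 1 (25) in Ezh2 KO. With only the libraries compared, Ezh2 KO had 1 (5) higher and 1 (23) lower and Ezh2 Y726D 0 (20) and 2 (12). Peaks within 5 kb gave 37 (503) higher in Ezh1/2 dKO, 20 (230) in Ezh2 Y726D and 1 (13) in Ezh2 KO. DESeq2 gave 7 (46) and 8 (103) in Ezh2 KO, and edgeR 1 (23) lower. With the replicate number as a block, 1 (25) was lower in Ezh2 KO, and the other counts were 21 (464) and 22 (50) in Ezh1/2 dKO and 10 (200) and 31 (130) in Ezh2 Y726D. Same-numbered libraries deviated together in the 3 pairs of mutant lines (r 0.22 to 0.29) but not in the 3 pairs with WT (−0.41 to −0.07), against which each mutant was compared, so the numbers were not used as pairs. Leaving out 1 library gave 0 to 34 (1 to 510) higher and 1 to 28 (2 to 62) lower in Ezh1/2 dKO, 7 to 19 (124 to 234) and 28 to 116 (96 to 330) in Ezh2 Y726D and 0 to 10 (0 to 53) and 1 to 7 (6 to 82) in Ezh2 KO. The upper ends came without WT replicate 2 (34, 19, 10 and 7), without WT replicate 1 (28) and without Ezh2 Y726D replicate 1 (116), and the 0 and 1 in Ezh1/2 dKO without either dKO library. The lone library left is then assumed to vary like the other lines. The cause was not tested. List lengths limit all peak counts, since a missing peak is not absence of acetylation.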
